A study of Homo sapiens with 8 samples.

Results

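The 10 genes described here encode enzymes that write or erase DNA methylation and histone modifications: DNMT1, DNMT3A, DNMT3B, TET1, TET2, TET3, EZH2, EP300, CREBBP and KMT2A. They were chosen by name, out of 20090 protein-coding genes annotated on chromosomes 1 to 22 and X of hg19 (GRCh37). H3K4me3 and H3K27ac were profiled by ChIP-seq in HL-60, an established human cell line grown from the peripheral blood of an acute promyelocytic leukemia, as the labels give it. ATRA-treated cells received 1 µM all-trans retinoic acid, which drives these cells toward granulocytes, and were collected after 4 days. Control cells received the same volume of ethanol, the solvent of ATRA, over the same 4 days, and medium and agent were renewed in both groups during that time. Each mark was measured in 2 replicate libraries of each condition, so that 8 peak lists were compared, and all of them come from 1 line and from 1 time point.

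DNMT3A and DNMT3B place methyl groups on cytosines of unmethylated CpG sites, and DNMT1 copies the pattern onto the new strand after replication. TET1, TET2 and TET3 oxidize 5-methylcytosine and so open the way to its removal. EZH2 is the catalytic subunit of Polycomb repressive complex 2 and methylates H3K27, the same lysine that EP300 and CREBBP acetylate, while KMT2A (MLL1) methylates H3K4. H3K4me3 marks CpG-rich promoters and H3K27ac marks active promoters and enhancers, so that several of these genes encode the enzymes behind the marks measured over them. DNMT3A, TET2, EZH2 and KMT2A are also known as recurrent targets of lesions in myeloid leukemia.

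The value compared was a length, because the peak lists hold positions and no read counts: the number of base pairs under called peaks in a gene's region, which is the annotated gene body plus 10 kb each side. Values below are given in the order ATRA replicate 1, ATRA replicate 2, control replicate 1, control replicate 2. Groups are said not to overlap where both ATRA libraries lie above, or both below, both control libraries. An exact two-sided permutation test of 2 libraries against 2 cannot go below p = 0.33, so log2(length + 1000 bp) was tested with limma over all genes and adjusted by Benjamini-Hochberg, and non-overlap was read against its share among all genes.

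The libraries differed in how much of the genome was called. H3K4me3 peaks covered 63.2 and 62.3 Mb in the ATRA libraries and 59.8 and 47.7 Mb in the control libraries. H3K27ac peaks covered 64.8 and 86.1 Mb in the ATRA libraries and 28.8 and 54.0 Mb in the control libraries, and the median log2 change over all genes fitted was 0.16 for H3K4me3 and 0.50 for H3K27ac. More cells carrying a mark and more of the mark per cell cannot be told apart in these bulk libraries. More called length in the ATRA libraries moved with every comparison below, and its part in the results was not tested beyond the rescaled values given beside them. As a check of the cells, H3K4me3 covered the starts of 9 and 9 of 14 myeloid genes in the ATRA libraries and 5 and 5 in the control libraries: MPO, SPI1, CEBPA, CD33 and CSF3R in every library, ITGAM, CD38, CYBB and PRTN3 in ATRA only, and ELANE, AZU1, NCF1, TGM2 and FPR1 in none. Of 13 genes of other cell types, 1, 1, 2 and 1 had such a peak. H3K27ac covered the starts of 8, 9, 3 and 7 of the 14 myeloid genes, and their summed H3K27ac length was 152216, 166379, 44554 and 90387 bp. It covered 3, 1, 2 and 2 starts of the 13 genes of other cell types. The summed H3K27ac length of those 13 genes was 65516, 47988, 18232 and 25271 bp, and 4 of the 6 fitted (CD3E, CD3G, CD79A and COL1A1) were higher with ATRA and 0 lower, with a median log2 change of 1.42 beside 0.50 over all genes. The CD79A start peak measured 25329, 15055, 3046 and 3360 bp, and ALB, INS, NEUROD1, MYH7 and KRT5 had no H3K27ac in their regions. The part of this in the results was not tested.

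The promoters of the 10 genes were rich in CpG. The 250 bases before the start of the canonical transcript held a median of 32 CpG in these genes, beside 18 over all 20090 promoters, 22 over the 10124 promoters with H3K4me3 in every library and 7 over the 9188 without it in any. TET1 had 9 CpG, and 10 or fewer were found in 8.53% of the promoters marked in every library. The sequences below, from GRCh37, are promoters whose peaks are described further on, with each CpG in capitals, 5′ to 3′ on the strand of the gene. TET2, EP300, TET3 and DNMT1 were taken by rule for their peaks at the start, and DNMT3A and TET1 were added after their values were seen. DNMT1 met the rule through the H3K4me3 peak at its annotated 5′ end, 36333 bp upstream of the canonical start. At the canonical start, whose promoter is shown, both marks overlapped between groups.
DNMT1 promoter, chr19:10305630-10305879, minus strand, 21 CpG: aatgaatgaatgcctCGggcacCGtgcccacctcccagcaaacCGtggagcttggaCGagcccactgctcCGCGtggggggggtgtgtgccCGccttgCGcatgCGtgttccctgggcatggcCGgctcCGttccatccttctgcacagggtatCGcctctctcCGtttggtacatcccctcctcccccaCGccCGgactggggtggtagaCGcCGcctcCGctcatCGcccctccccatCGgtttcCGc
DNMT3A promoter, chr2:25564795-25565044, minus strand, 33 CpG: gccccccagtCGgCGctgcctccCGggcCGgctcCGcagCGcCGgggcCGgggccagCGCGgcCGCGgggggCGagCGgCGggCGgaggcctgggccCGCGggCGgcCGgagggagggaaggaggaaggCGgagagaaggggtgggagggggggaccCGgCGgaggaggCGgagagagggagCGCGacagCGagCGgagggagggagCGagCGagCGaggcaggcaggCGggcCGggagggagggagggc
TET1 promoter, chr10:70319844-70320093, plus strand, 9 CpG: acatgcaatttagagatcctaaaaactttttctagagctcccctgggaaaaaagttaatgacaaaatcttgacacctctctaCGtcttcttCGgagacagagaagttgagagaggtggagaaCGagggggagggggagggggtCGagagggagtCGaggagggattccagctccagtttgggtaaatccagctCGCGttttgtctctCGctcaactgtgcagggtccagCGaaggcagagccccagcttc
TET2 promoter, chr4:106067783-106068032, plus strand, 34 CpG: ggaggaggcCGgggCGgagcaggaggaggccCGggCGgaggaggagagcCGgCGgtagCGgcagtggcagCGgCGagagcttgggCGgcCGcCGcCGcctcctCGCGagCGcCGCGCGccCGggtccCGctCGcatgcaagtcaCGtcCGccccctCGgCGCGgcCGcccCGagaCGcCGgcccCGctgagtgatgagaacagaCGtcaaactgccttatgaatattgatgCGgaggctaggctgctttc
TET3 promoter, chr2:74211787-74212036, plus strand, 37 CpG: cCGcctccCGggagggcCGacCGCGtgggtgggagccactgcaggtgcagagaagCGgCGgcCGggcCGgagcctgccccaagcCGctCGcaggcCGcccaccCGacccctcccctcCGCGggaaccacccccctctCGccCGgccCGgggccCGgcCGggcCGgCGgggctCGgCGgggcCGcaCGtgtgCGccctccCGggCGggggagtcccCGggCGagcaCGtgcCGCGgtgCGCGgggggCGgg
EP300 promoter, chr22:41488346-41488595, plus strand, 35 CpG: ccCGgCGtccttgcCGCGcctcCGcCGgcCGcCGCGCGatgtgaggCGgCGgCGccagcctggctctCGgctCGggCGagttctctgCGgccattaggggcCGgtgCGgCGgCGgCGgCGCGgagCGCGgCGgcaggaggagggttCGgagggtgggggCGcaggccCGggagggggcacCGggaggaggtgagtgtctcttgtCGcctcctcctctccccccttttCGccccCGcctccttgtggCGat
The GC box (GGGCGG on either strand) was present in 7 of these 10 windows and in 58.6% of all promoters. CCGGAAG (the ETS core, in 11.8% of all promoters), TTTCGCGC or TTTGGCGC (E2F, 1.31%) and the NRF1 palindrome (1.48%) were in none of the 10 on either strand. For E2F this holds only up to the start. In windows of 300 bases that ran past the same starts, an E2F form was present in DNMT1 and EZH2. The share over all promoters was not taken for those windows.

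H3K4me3 lay over the start of all 10 genes in all 4 libraries, compared with 47.2% of all protein-coding genes. H3K27ac lay over the start in every library in 4 genes, TET2, TET3, EZH2 and EP300, compared with 18.0% of all genes. DNMT3A, DNMT3B, TET1 and CREBBP had no H3K27ac peak over their start in any library. In KMT2A and DNMT1 the start was covered in some libraries only. Among peaks with −log10 q of at least 5, H3K4me3 covered the start in every library in 6 genes and H3K27ac in 0. Of all peaks, 80.2% to 87.4% in H3K4me3 but 12.8% to 16.9% in H3K27ac reached that value. The share of all genes with such a start peak was not taken.

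**Figure D1:**
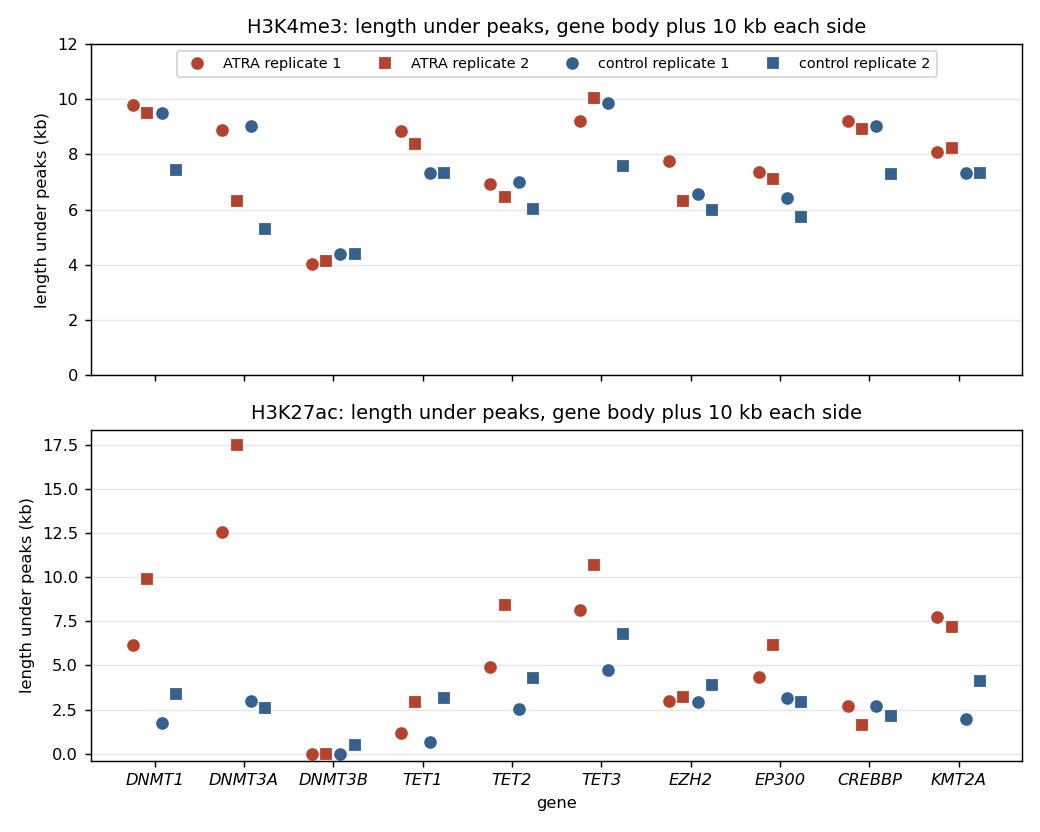
Length under peaks (kb) in the gene body plus 10 kb each side for the 10 genes, H3K4me3 above and H3K27ac below, with 1 point per library (red, ATRA; blue, control; circles, replicate 1; squares, replicate 2). In H3K27ac the DNMT3A points lie at 12573 and 17492 bp with ATRA and at 3010 and 2581 bp in control cells, while H3K4me3 differed far less between conditions.

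Upon ATRA induction the H3K27ac length was above both control libraries in 6 of the 10 regions (DNMT1, DNMT3A, TET2, TET3, EP300 and KMT2A), below in 0, and overlapping in DNMT3B, TET1, EZH2 and CREBBP. Of 12854 genes fitted, 45.6% were higher and 4.13% lower by the same rule. The median log2 change over all 10 members, with DNMT3B, which did not pass the filter, was 0.62, beside 0.50 over all genes fitted. H3K4me3 was higher in TET1, EP300 and KMT2A, lower in DNMT3B and overlapping in the other 6, where 42.3% and 3.88% of 13132 genes were higher and lower. The median was 0.14 beside 0.16. When each library was scaled to its total called length, H3K27ac was higher in 3 members (DNMT1, DNMT3A and KMT2A; 18.2% of all genes) and lower in 1 (EZH2; 28.9%), and H3K4me3 was higher in 0 (16.4%) and lower in 4 (25.7%). Scaling turned the sign of the log2 change of 7 members in H3K4me3 and of TET1, TET3 and EP300 in H3K27ac. With peaks of −log10 q of at least 5 alone, 4 members passed the filter for H3K27ac, of which 0 were higher and 1, TET1, lower, beside 13.2% and 5.63% of 4764 genes.

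No member passed limma in either mark at an adjusted p of 0.05, where it called 0 of 12854 genes for H3K27ac (2387 at an unadjusted p under 0.05) and 2 higher and 2 lower (0.0152% each) of 13132 for H3K4me3. At that unadjusted p it gave 3 members for H3K27ac, DNMT3A, DNMT1 and KMT2A, and 0 for H3K4me3. Same-numbered libraries shared a tag in the deposited peak names and deviated together, and with the replicate number as a block the H3K27ac length of these 3 genes passed, with adjusted p of 0.00444, 0.0149 and 0.0456, while 21.0% of all genes were called higher and 1.29% lower. For H3K4me3 the block called 0 members, with 0.822% of genes higher and 0.107% lower. With the block and the scaled length together DNMT3A alone of the members passed (adjusted p = 0.00887), where 8.40% of genes were called higher and 5.98% lower.

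**Figure D2:**
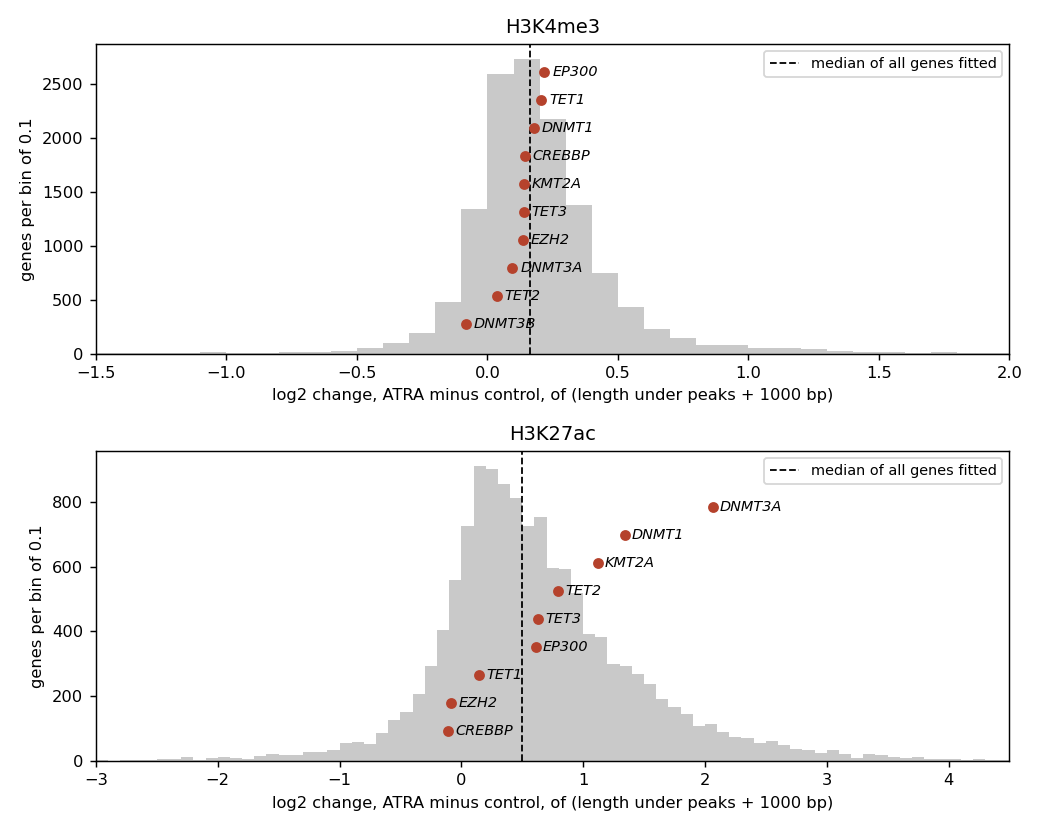
Log2 change (ATRA minus control) of length under peaks plus 1000 bp, with grey bars counting all genes fitted in bins of 0.1, the dashed line at their median and red points for the members that passed the filter, spread vertically for reading only. DNMT3A (2.06), DNMT1 (1.34) and KMT2A (1.12) lie farthest to the right in H3K27ac, and the H3K4me3 points lie between -0.08 and 0.22.

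DNMT3A (chr2:25450724-25565459, minus strand), a de novo DNA methyltransferase, showed the widest H3K27ac separation of these genes when all called peaks were counted. Its region held 12573, 17492, 3010 and 2581 bp under H3K27ac peaks, a mean of 15032.5 ± 3478 bp with ATRA and 2795.5 ± 303 bp in control cells (SD, n = 2), or 5.38-fold. Both ATRA libraries thus exceeded both control libraries, with a log2 change of 2.06 (SE 0.36; limma adjusted p = 0.0882, and 0.00444 with the replicate block). Of all genes fitted, 94.6% had a smaller log2 change. Scaled to total length the log2 change was 1.28. With peaks of −log10 q of at least 5 alone it was 0.91 (SE 0.98, limma adjusted p = 0.54), beside a median of 0.81 over all genes fitted. None of this acetylation lay over the promoter, which carried H3K4me3 of 8867, 6295, 6457 and 5282 bp in lengths that overlapped between groups.

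The H3K27ac peaks of DNMT3A lay between intron 1 and exon 5, centred 6.1 to 66.0 kb behind the start. The widest, chr2:25534589-25541208, spans intron 1, exon 2 and intron 2 around 26.9 kb from the start and held 6405 and 6248 bp with ATRA and 3010 and 1335 bp in control cells. In intron 3, around 47.0 kb, chr2:25515684-25519921 held 2750 and 4187 bp with ATRA and 0 and 1246 bp in control cells. Intervals at 55.7 kb (chr2:25508234-25509896; 632 and 1292 bp) and 62.8 kb (chr2:25500970-25502934; 1569 and 1806 bp) had peaks in both ATRA libraries and in no control library. The 4 other intervals were each found in 1 ATRA library alone. The 300 bases at the middle of the interval at 47.0 kb are shown because they hold GAGGAAGT, a form of the PU.1 motif, in capitals on the plus strand. It was found in 1 of the 16 such windows of these genes, and in 3.76% of 10226 windows cut the same way from all H3K27ac intervals longer with ATRA, on either strand.
DNMT3A intron 3, chr2:25517653-25517952, plus strand: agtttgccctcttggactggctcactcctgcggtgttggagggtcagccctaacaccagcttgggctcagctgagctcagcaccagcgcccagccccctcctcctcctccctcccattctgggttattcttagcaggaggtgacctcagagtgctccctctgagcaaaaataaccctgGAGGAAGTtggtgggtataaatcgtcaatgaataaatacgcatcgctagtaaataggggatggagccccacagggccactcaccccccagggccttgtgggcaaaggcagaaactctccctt
A direct repeat of the retinoic acid receptor half-site with a spacing of 1, 2 or 5 bases (DR1, DR2 or DR5) was in none of the 16 windows, beside 0.147%, 1.09% and 0.176% of all. Of the other motifs searched, TGTGGTTT (RUNX) was in 1 window, downstream of DNMT1, and TTGCGCAA (C/EBP) and TGACTCA (AP-1) were in none, beside 2.02%, 0.0587% and 5.46% of all. The RefSeq starts of the short DNMT3A form, 89610 to 89794 bp behind the canonical start, had no peak of either mark in any library.

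DNMT1 (chr19:10244018-10341962, minus strand), the maintenance methyltransferase, had 6133, 9887, 1742 and 3408 bp under H3K27ac peaks, 3.11-fold more in ATRA-treated than in control cells. The ATRA libraries both lay above the controls, with a log2 change of 1.34 (SE 0.44; limma adjusted p = 0.219, and 0.0149 with the replicate block). Scaled to total length the log2 change was 0.62 (limma adjusted p = 0.23 with the block). The difference lay away from the promoter of its canonical transcript, where H3K27ac spanned 1480, 2708, 1742 and 2847 bp and the groups overlapped. Most of it lay upstream, centred at -27.0, -36.1 and -42.3 kb from that start, where chr19:10331548-10333708 (977 and 2025 bp), chr19:10340880-10342589 (805 and 1000 bp) and chr19:10346681-10349133 (716 and 2442 bp) had peaks in both ATRA libraries and in neither control library. A further interval of that kind, chr19:10236539-10237663, lay downstream of the gene, 68.5 kb behind the start (200 and 1125 bp with ATRA). The annotated 5′ end of DNMT1 lies 36333 bp upstream of its canonical start and next to the start of S1PR2, a sphingosine-1-phosphate receptor gene, so the upstream peaks cannot be assigned to DNMT1 from position. With regions drawn from canonical transcripts, a choice made after this was seen, H3K27ac was higher in 5 members (45.4% of all genes) instead of 6, and DNMT1 was no longer among them.

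H3K4me3 over the canonical DNMT1 promoter was 5302, 5449, 5337 and 4273 bp, so that control replicate 2 alone was shorter. At the distant 5′ end shared with S1PR2 it was 3852, 3862, 3487 and 2770 bp, longer in both ATRA libraries. Over the whole region the 4 values were 9774, 9511, 9512 and 7433 bp, and the groups overlapped.

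DNMT3B (chr20:31350191-31397165, plus strand), the other de novo methyltransferase, went the other way from most genes in H3K4me3. Its single H3K4me3 peak measured 4033, 4147, 4395 and 4391 bp, shorter in both ATRA libraries, with a log2 change of -0.08 (SE 0.13; limma adjusted p = 0.82). H3K27ac was called in 1 library only, as 500 bp in intron 1 in control replicate 2. DNMT3B was the 1 member that did not pass the filter for that mark. The H3K4me3 peak also lay below both controls when scaled to total length. With 25 kb flanks the direction of its H3K4me3 change turned (log2 0.06).

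TET2 (chr4:106067032-106200973, plus strand), a 5-methylcytosine dioxygenase, carried both marks at its promoter. H3K27ac there spanned 4289, 6810, 2534 and 3304 bp, and reached 2884 and 3910 bp upstream of the start with ATRA beside 1505 and 1585 bp in control cells. Over the whole region the lengths were 4941, 8406, 2534 and 4270 bp (log2 change 0.79, SE 0.44; limma adjusted p = 0.411, and 0.0821 with the replicate block). Scaled to total length the log2 change was 0.041 and the groups overlapped. A second interval 44.1 kb into the gene, chr4:106111299-106112953, spanning exon 2 and its flanking introns, held 652 and 1596 bp with ATRA and none in control cells. H3K4me3 over the promoter was 6923, 6441, 6527 and 6015 bp and overlapped between groups, although its downstream edge lay farther from the start with ATRA (4502 and 4571 bp, beside 4089 and 4192 bp).

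TET3 (chr2:74212037-74335303, plus strand), a further dioxygenase of the family, had the widest H3K4me3 promoter peak of the 10 genes, at 9226, 10029, 8675 and 7576 bp, longer in both ATRA libraries. H3K27ac over the promoter was also longer, at 5341, 5402, 4724 and 4140 bp. The region held 8172, 10676, 4724 and 6799 bp of H3K27ac, a log2 change of 0.63 (SE 0.37; limma adjusted p = 0.432). Its sign turned when libraries were scaled to total length (-0.18). Upstream of the start, chr2:74194105-74204832 held 6676 and 10125 bp with ATRA and 1635 and 4730 bp in control cells, the largest difference of means among the intervals of these genes, most of it beyond the 10 kb flank and so not in the region length.

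TET1 (chr10:70320094-70454244, plus strand) differed from TET2 and TET3 in having no H3K27ac over its start in any library, beside H3K4me3 of 5375, 5197, 4967 and 5355 bp there. Its region held 1159, 2924, 679 and 3140 bp of H3K27ac, and here the replicates differed more than the conditions. At 1.2 kb behind the start, chr10:70320830-70321727 held 0, 0, 202 and 712 bp, the only H3K27ac interval of these genes found in both control libraries and in neither ATRA library. The interval centred 2.8 kb behind the start, chr10:70322236-70323619, was found in all 4 libraries (877, 952, 477 and 988 bp), and the groups overlapped. ATRA replicate 2 alone had a further 200 bp centred 0.1 kb behind the start. H3K4me3 over the whole region was 8847, 8375, 7324 and 7326 bp, longer with ATRA (log2 change 0.21, SE 0.12; limma adjusted p = 0.54). That difference came from an internal peak around 41.2 kb, chr10:70359567-70363078, of 3472, 3178, 2357 and 1971 bp, over exon 3 and its flanking introns, where RefSeq places 2 alternative starts.

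EZH2 (chr7:148504349-148581413, minus strand), the Polycomb methyltransferase, had nearly equal H3K27ac lengths in the 4 libraries. Its promoter peak measured 3005, 3239, 2904 and 2969 bp, which did not overlap but differed by a log2 change of only 0.07 (SE 0.18; limma adjusted p = 0.92). Over the region, with 905 bp in intron 1 in control replicate 2 alone, the values were 3005, 3239, 2904 and 3874 bp, and scaled to total length EZH2 lay below both controls (log2 change -0.80). H3K4me3 was 7761, 6295, 6551 and 5998 bp and overlapped.

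EP300 (chr22:41488596-41576081, plus strand), an H3K27 acetyltransferase and coactivator, was longer in both marks in both ATRA libraries. H3K4me3 measured 7358, 7120, 6436 and 5745 bp (log2 change 0.22, SE 0.13; limma adjusted p = 0.534), all of it in the promoter peak. The H3K27ac promoter peak measured 4324, 4322, 3163 and 2940 bp, and the region 4324, 6174, 3163 and 2940 bp (log2 change 0.61, SE 0.36; limma adjusted p = 0.445, 0.177 with the replicate block, and a log2 change of -0.14 when scaled to total length). The H3K4me3 edge downstream of the start lay at 4964 and 5171 bp with ATRA and at 4398 and 3879 bp in control cells.

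CREBBP (chr16:3775055-3930714, minus strand), the paralog of EP300, had no H3K27ac peak over its start or anywhere in its gene body in any library. The 2714, 1654, 2691 and 2111 bp counted in its region all lay in the 3′ flank over the promoter of TRAP1, which encodes a mitochondrial chaperone. The paralogs therefore differed in this mark in every library when all called peaks were counted. With peaks of −log10 q of at least 5 alone, neither EP300 nor CREBBP passed the filter for H3K27ac. H3K4me3 was present at the CREBBP promoter in every library, at 4537, 3745, 3851 and 3088 bp, and overlapped between groups. Counting the second, separate peak of ATRA replicate 2, the marked interval chr16:3927152-3932809 held 4537, 4732, 3851 and 3088 bp, longer with ATRA.

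KMT2A (chr11:118307171-118397547, plus strand), the H3K4 methyltransferase, had 7737, 7194, 1954 and 4133 bp under H3K27ac peaks, 2.45-fold more in ATRA-treated cells. The log2 change was 1.12 (SE 0.42; limma adjusted p = 0.258, and 0.0456 with the replicate block), and 0.39 when scaled to total length. Most of the difference lay at the far end of the gene, where chr11:118393139-118398077, over exon 36 and the sequence just before the start of the neighbouring gene TTC36, held 4501, 2014, 0 and 970 bp. At the promoter H3K27ac spanned 2774, 5180, 1954 and 3163 bp and overlapped, with the start itself covered in replicate 2 of each condition only. H3K4me3 over the region was 8098, 8236, 7329 and 7312 bp, longer in both ATRA libraries (log2 change 0.14, SE 0.12; limma adjusted p = 0.651).

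**Figure D3:**
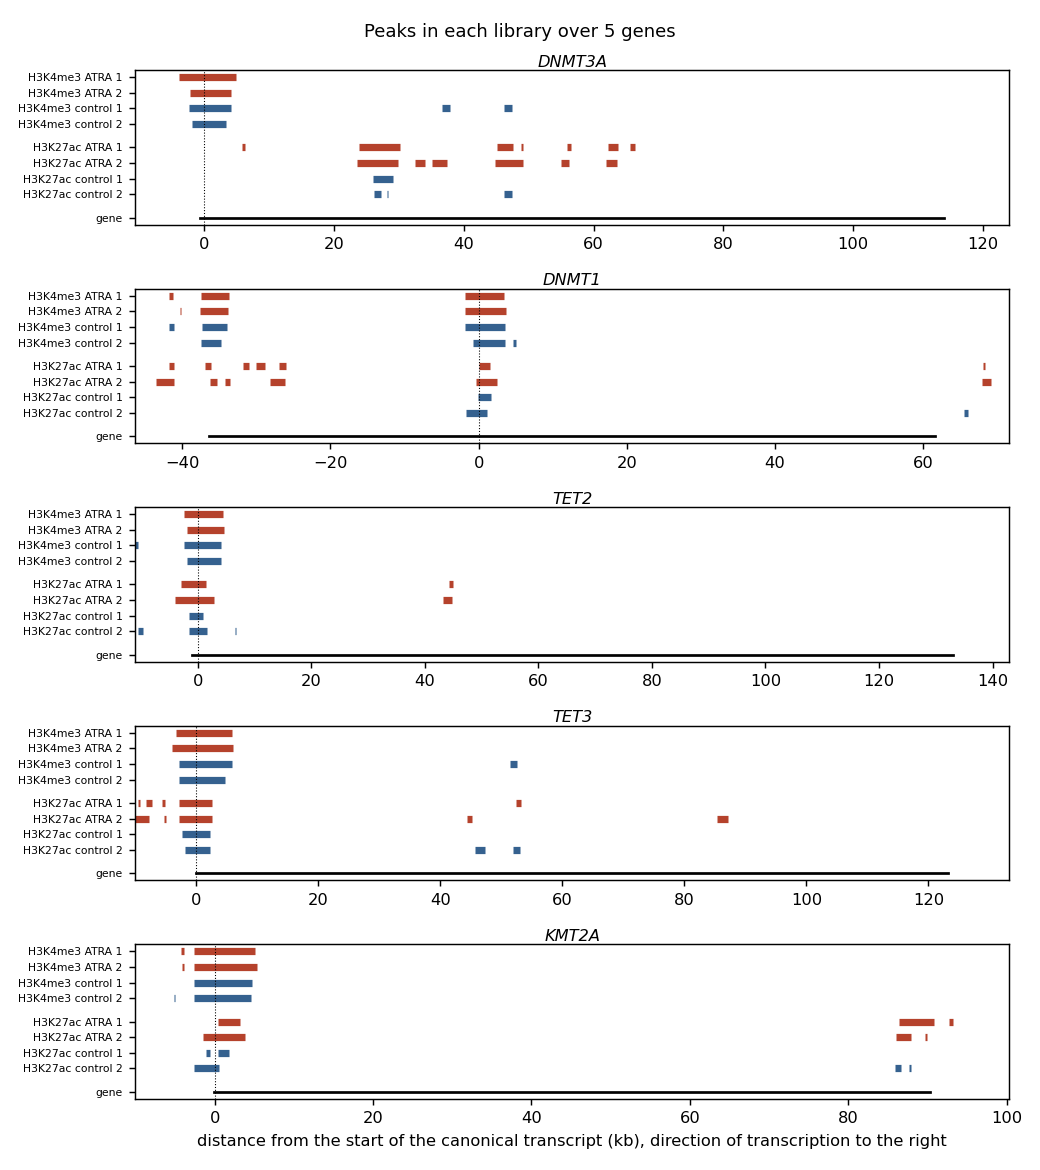
Peaks called in each library (red, ATRA; blue, control) over DNMT3A, DNMT1, TET2, TET3 and KMT2A, drawn to scale by distance in kb from the start of the canonical transcript (dotted line), with the annotated gene as a black line. H3K4me3 sits at the starts in every library, while the H3K27ac peaks with a wide difference lie inside DNMT3A, upstream of DNMT1 and TET3, and at the far end of KMT2A.

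Counted as separate intervals, peaks of the 4 libraries joined where they overlapped, the 10 regions held 43 intervals of H3K27ac. Of these, 16 were longer in both ATRA libraries and 1 was shorter, and 8 were found in both ATRA libraries and in no control library, 4 of them in DNMT1, 2 in DNMT3A and 1 each in TET2 and TET3. Genome-wide, 19.2% of 53146 H3K27ac intervals were longer and 2.97% shorter, and 8.07% were found in both ATRA libraries and in no control library. For both marks the genome-wide set also holds intervals outside gene regions, and no share within gene regions was taken. Interval lengths were not scaled to total length. For H3K4me3, 7 of 24 intervals were longer and 1, at DNMT3B, was shorter, beside 28.2% and 4.06% of 19909 genome-wide. Of the H3K4me3 intervals, 8 were found in 1 library, 5 of them in control replicate 1, as in intron 2 and intron 3 of DNMT3A and in intron 3 of TET3.

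The H3K4me3 peak over the start can also be described by its edges. The downstream edge lay farther from the start in both ATRA libraries in DNMT3A, TET2, TET3, EZH2, EP300 and KMT2A, nearer in DNMT3B and overlapped in DNMT1, TET1 and CREBBP. Of the 10124 genes with this peak in every library, 41.7% were higher and 7.59% lower in this measure. The upstream edge was farther in TET3 alone (32.5% of genes were higher and 7.00% lower) and overlapped in the other 9. In KMT2A the upstream edges lay at 2633, 2599, 2650 and 2573 bp and the downstream edges at 5082, 5350, 4678 and 4538 bp.

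**Figure D4:**
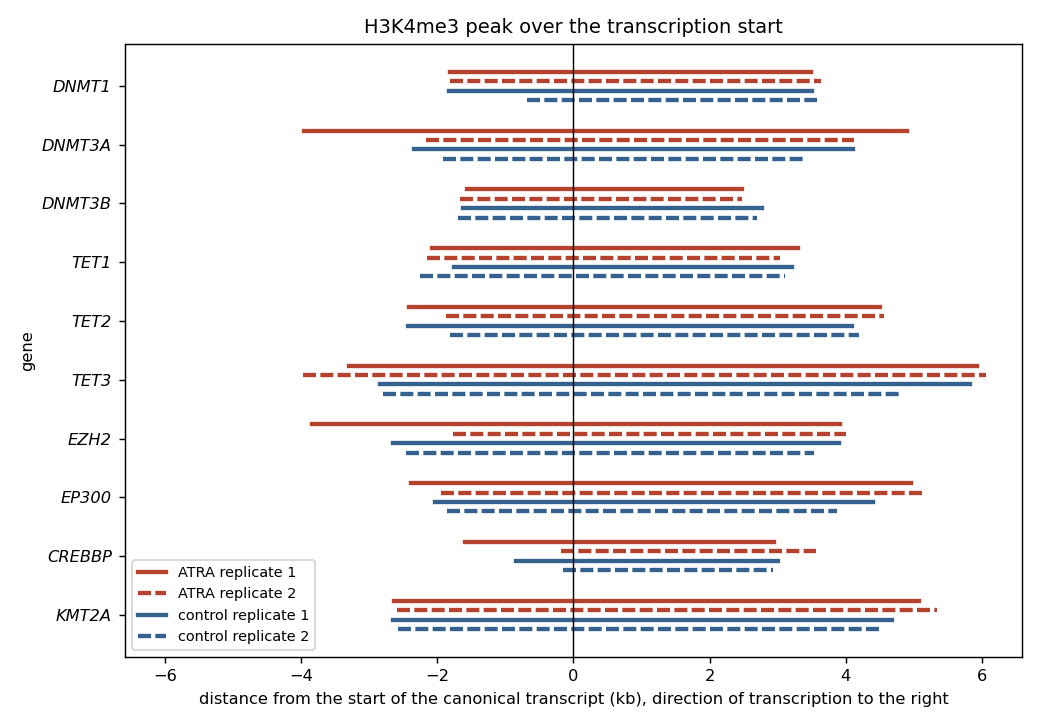
H3K4me3 peak over the start of each gene in every library, drawn from its upstream to its downstream edge in kb from the start of the canonical transcript (red, ATRA; blue, control; dashed, replicate 2). The downstream edge of the red lines lies beyond both blue lines in 6 genes, among them KMT2A (5082 and 5350 bp beside 4678 and 4538 bp), and short of them in DNMT3B (2472 and 2480 bp beside 2765 and 2692 bp).

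Peak length over the gene's annotated 5′ end summarized the same loci for both marks. H3K4me3 was longer with ATRA in 4 members (DNMT1, TET3, EP300 and KMT2A) and shorter in DNMT3B, beside 41.4% and 4.64% of 10252 genes. H3K27ac was longer in 4 members (TET2, TET3, EZH2 and EP300) and shorter in 0, beside 34.8% and 3.94% of 7280 genes, and 5 members passed the filter. None of these members passed limma for its start peak, where 0.00975% and 0% of genes were called higher and lower in H3K4me3 and 0.728% and 0.0412% in H3K27ac, and 0 members had an unadjusted p under 0.05 in either mark. After scaling to total length, H3K4me3 was longer in 1 member, DNMT1, and shorter in 1, DNMT3B, beside 14.8% and 26.2% of all genes, and H3K27ac was longer in 0 and shorter in 1, EZH2, beside 12.4% and 31.2%.

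Further genes of the same pathways, 109 in 6 lists without the 10 members, showed shares near those of all genes. H3K4me3 was higher in 43 of 107 fitted genes (40.2%) and lower in 4, beside 42.3% and 3.88% of all genes. H3K27ac was higher in 43 of 104 (41.3%) and lower in 3, beside 45.6% and 4.13%. None passed limma in either mark (10 and 17 at an unadjusted p under 0.05, beside 1419 of 13132 and 2387 of 12854 genes). With the replicate block 1 and 22 were called higher, beside 0.822% and 21.0% of all genes. The single lists below are to be read beside that 45.6% and a median log2 change in H3K27ac of 0.50 over all genes. Among 13 histone acetyltransferase genes, relatives of EP300 and CREBBP in function, H3K27ac was higher in 7 and lower in 1, with a median log2 change of 0.89. Among 18 deacetylase and corepressor genes fitted it was higher in 11 and lower in 0 (median 0.67). Among the 17 fitted Polycomb genes, partners of EZH2, 4 were higher and 1 lower (median 0.29), and among the 17 genes of H3K4 methylation, relatives and partners of KMT2A, 5 were higher and 0 lower (median 0.32). Of the 12 fitted genes of DNA methylation 5 were higher and 0 lower (median 0.29), and of the 27 other methyltransferases and demethylases 11 and 1 (median 0.36).

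NCOA3, a nuclear receptor coactivator with acetyltransferase activity, had the largest separation of these 109 genes in both marks. Its region held 19297, 31527, 0 and 1704 bp of H3K27ac (log2 change 3.97, SE 0.60; limma adjusted p = 0.0803, and 0.000795 with the replicate block). Its H3K4me3 was 9875, 8960, 4539 and 3552 bp (log2 change 1.05; adjusted p = 0.231, and 0.0191 with the block). CBX8, a Polycomb subunit, followed in H3K4me3 with 8287, 7773, 7448 and 2915 bp, where control replicate 2 alone was far shorter. In H3K27ac the CBX8 region held 4540, 4380, 341 and 0 bp, a log2 change of 2.24 (SE 0.39). Its limma adjusted p was 0.0892, 0.00451 with the replicate block, and 0.00944 with the block and scaled lengths together.

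Few genes of these lists lay below the controls. CARM1, an arginine methyltransferase, held 2946, 1482, 6576 and 3542 bp of H3K27ac, and PHF19, a Polycomb-associated protein, held 14974, 11671, 23256 and 21571 bp. In H3K4me3, KAT5 (10579, 9015, 12926 and 11027 bp), an acetyltransferase, and HDAC3 (10965, 12707, 12747 and 12989 bp), a class I deacetylase, were lower. None of these 4 passed limma with or without the replicate block. With the block and scaled lengths together CARM1 (limma adjusted p = 0.00464), PHF19 (0.00013) and KAT5 (0.00835) did. That fit called 5.98% of all genes lower in H3K27ac and 1.78% in H3K4me3.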

How the data were processed

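H3K4me3 and H3K27ac ChIP-seq peaks were compared in HL-60 cells with and without ATRA, with 2 libraries of each group per mark, grouped by their labels. Per the paper's methods, the authors removed adapters, mapped the reads with Bowtie (build hg19) and ran MACS2 in its broad mode on each library by itself, and input libraries were made. The versions, and whether the input entered the peak call, are not given in the sources used here. The deposited peak lists give positions and, as −log10, a q-value for each peak, used only as a filter. Their fold and p-value columns hold impossible values and were not used. Read depth is unknown, since the lists hold no read counts.

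Base pairs under peaks were summed in each GENCODE 44 gene body (lifted to GRCh37) plus 10 kb each side, and in the peak over each transcription start. Genes with a mean of at least 500 bp were fitted as log2(length + 1000 bp), for which a fold change understates the change of low values, with limma 3.58.1 (trend and robust; R 4.3.3; Python 3.11.15), each mark alone, with Benjamini-Hochberg adjustment over all genes fitted. Code was tested on simulated data. The fit had no block, and the replicate number entered as a block in an alternative. The pairing rests on a date-like tag that same-numbered libraries share in the deposited peak names, and on their deviations from the group means over genes, which correlated with r = 0.247 for H3K4me3 and 0.519 for H3K27ac (2 pairs each). Nothing in the labels says that replicates were separate cultures, so p-values measure the spread between these libraries, which may be technical.

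The members, lists and tests were chosen with earlier results of these data known. Named by rule were all 10 members, up to 4 peak intervals per mark and direction by difference of means among those whose groups do not overlap, the 2 genes of the wider lists with the largest log2 change per mark and direction without overlap, and up to 4 promoters. Other intervals and sequences were chosen after their values were seen. Items withheld for evaluation are not reported here. All coordinates are hg19 and count from 1. RefSeq starts were placed by exact sequence match to GRCh37. Alternatives were 200 and 5000 bp as pseudocount, no filter, scaled lengths, other windows and starts, −log10 q of at least 5, and leaving out each library.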

Additional observations from a re-analysis of the deposited data

How the results depend on the processing

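The results rest on 2 libraries a group, on called length with no read depth, and on libraries that differ in how much was called. The log2 changes of TET1 in H3K4me3 and of DNMT3A, DNMT1, KMT2A and TET2 in H3K27ac kept their sign under every setting that gave them a value, and those of the other members turned under at least 1. Of the former, TET1 (0.00061) and TET2 (0.041) were close to 0 when scaled, and DNMT1 (0.050) over canonical transcripts. The replicate block and the lack of a filter leave a log2 change as it is, so they could not turn a sign. KMT2A and TET2 had no H3K27ac value with peaks of −log10 q of at least 5 alone, since they did not pass the filter there. The cause of the changes below was not tested.

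The replicate block left H3K27ac with 3 members called higher by limma instead of 0 (1 with scaled lengths, an alternative added after the data were seen) and called none in H3K4me3. Read pair by pair, H3K4me3 was higher in 6 regions and at 7 starts instead of 3 and 4, beside 56.6% and 53.6% of all genes read so. It changed no other call. Scaled to total length, H3K4me3 had 0 regions higher and 4 lower, 1 start peak longer and a median log2 change of -0.065, and H3K27ac had 3 higher and 1 lower, 0 start peaks longer and 1 shorter, and a median of -0.16. At −log10 q of at least 5, H3K4me3 covered 6 starts in every library and H3K27ac 0, with no share of all genes taken. H3K27ac then had 0 regions higher and 1 lower, 0 start peaks longer and a median of 0.0 over all 10 members. For the gene body alone H3K4me3 was higher in 6, beside 39.5% of all genes. The H3K27ac median was then 0.29, beside 0.38 over all genes fitted. With 25 kb flanks 0 were lower in H3K4me3. Within 1 kb of the start 1 H3K27ac peak was shorter. The share of all genes was not taken for either of these counts. The H3K27ac median was 0.38 over canonical transcripts, 0.71 with a pseudocount of 200 bp and 0.38 with 5000 bp. Over all genes fitted these medians were 0.49, 0.66 and 0.25.

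Leaving out 1 library gave 3 to 9 regions higher in H3K4me3 (9 without control replicate 1, 6 without ATRA replicate 2) and 1 to 3 lower (3 without control replicate 2). Start peaks were longer in 4 to 9 (9 without ATRA replicate 2, 7 without control replicate 1) and shorter in 1 to 2 (2 without ATRA replicate 1). The H3K4me3 median lay between 0.011 (without control replicate 2) and 0.24. Over all genes fitted it lay between 0.047 (without control replicate 2) and 0.28 (without control replicate 1). In H3K27ac 0 to 3 were lower (3 without control replicate 1, 1 without ATRA replicate 1). The H3K27ac median lay between 0.43 (without ATRA replicate 2) and 0.82 (without control replicate 2). Over all genes fitted it lay between 0.28 (without control replicate 1) and 0.76 (without control replicate 2). The share of all genes was not taken for the counts without 1 library.

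Single log2 changes turned sign as follows. Scaled, with or without the block, H3K4me3 gave -0.030 in DNMT1, -0.10 in DNMT3A, -0.16 in TET2, -0.069 in TET3, -0.064 in EZH2, -0.063 in CREBBP and -0.066 in KMT2A, and H3K27ac gave -0.39 in TET1, -0.18 in TET3 and -0.14 in EP300. For the gene body alone H3K4me3 was -0.073 in DNMT3A and -0.015 in CREBBP, and with 25 kb flanks 0.059 in DNMT3B. At −log10 q of at least 5 it was -1.29 in EP300, and H3K27ac was -1.40 in TET1. Without 1 library, H3K4me3 ranged from -0.24 to 0.43 in DNMT3A, -0.059 to 0.13 in TET2 and -0.032 to 0.31 in TET3, and H3K27ac from -0.51 to 0.79 in TET1, -0.24 to 0.078 in EZH2 and -0.35 to 0.13 in CREBBP. None of these values passed limma.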
